A study of Mus musculus with 2 samples.

Results

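The genes of the proteasome were described in mouse embryonic stem cells, the E14 line (strain 129/Ola, passages 15 to 18). Membership was set by gene symbol: 49 of the 50508 genes of the expression table carry a Psma, Psmb, Psmc, Psmd, Psme, Psmf or Psmg symbol with a number. Both groups grew on gelatin in GMEM medium with 15% fetal bovine serum and with the cytokine LIF, which holds such cells undifferentiated, at 1000 U/ml. One received scramble siRNA and the other Mettl8 siRNA by Lipofectamine RNAiMAX, and RNA was extracted after 72 h. Each group is represented by 1 library, so no value has a replicate error, no test between the groups was possible and no p-value is given. Although the series record mentions triplicates, no label says whether a library pools several cultures.

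The proteasome is the protease complex that degrades ubiquitin-tagged proteins in the cytosol and nucleus. Its barrel, the 20S core, is built from rings of alpha and beta subunits, of which only some beta subunits cut peptide bonds. The 19S cap, made of a base with a ring of ATPases and a lid with a deubiquitinase, recognises, unfolds and feeds the substrate, and the capped core is the 26S proteasome. Other activators can replace the cap, dedicated chaperones assist assembly, and interferon-induced beta subunits form the immunoproteasome. In stem cells, high proteasome activity is known to accompany self-renewal.

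Levels are FPKM, reads per kilobase of gene length scaled to the read number of the library. Each pair of values is given first for the library labelled scramble siRNA and then for the library labelled Mettl8 siRNA. Differences are log2(FPKM + 1) in the second minus the first, which makes differences of low genes look smaller than their ratios. Ratios are plain FPKM ratios of the second over the first. Intervals come from rebuilt read counts, exact Poisson for a level and exact Clopper-Pearson for a ratio, at 95%, and cover counting error only. The 49 genes held 102255 and 104838 reads, 0.731% and 0.758% of the reads of protein-coding genes. The read number by which FPKM was scaled, inferred from the deposited values, was 28.5 and 27.8 M (M stands for 10 to the power 6). Mettl8 itself stood at 0.67 and 100.3 FPKM, the reverse of what a knockdown would give; each direction given here therefore follows the label only. The 6 stem cell markers Pou5f1, Nanog, Sox2, Zfp42, Esrrb and Dppa5a were present in both libraries, between 48.3 and 578 FPKM. Of 6 fibroblast, 3 trophoblast and 3 endoderm markers, 0 reached a mean of 1 FPKM. Among 4 immune cell markers, Ptprc was 0.01 FPKM in both, H2-Ab1 0.32 and 0.31, Cd74 1.20 and 1.43, and Laptm5 8.86 and 8.88.

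Transcripts of the constitutive 26S proteasome were abundant in both libraries and slightly but broadly higher in the library labelled Mettl8 siRNA. Of its 31 genes with a Psm symbol, called the 26S genes here, 29 were higher, with a median difference of 0.074. Summed over these genes, depth-scaled reads were 1.06 times those of the other library (counting interval 1.05 to 1.07). The 14 further measured members, which are chaperones, alternative activators and tissue-specific subunits, divided into 8 higher and 6 lower, with a median of 0.0081. Over all genes with a mean of at least 1 FPKM, 54.1% were higher and the median was 0.013, close to the values of these 14 members. The difference between these members and the 26S genes was not tested. In bulk RNA, fewer cells of a type and less RNA per cell cannot be told apart.

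A mean of at least 1 FPKM was required to count a gene, which 45 of the 49 members passed; Psme2b, Psmb8, Psmb9 and Psmb11 did not. Of these 45, 37 were higher, against 54.1% of the 13243 genes of the table that passed the same limit. With the FPKM sums of both libraries made equal, 43 of the 45 were higher, against 75.5% of all genes. No member differed by 1.5-fold or 2-fold, sizes reached by 2.11% and 0.642% of all genes. At 1.1-fold on the log2(FPKM + 1) scale, 5 members were higher and 1 was lower, against 14.2% and 13.7% of all genes, many of which are far less abundant. The counting interval of the ratio lay above 1 for 16 of the 45 and below 1 for 0, against 11.6% and 7.85% of all genes. Such an interval compares these 2 libraries, not the treatments.

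Abundant protein-coding genes as a whole were also more often higher. Among the 1128 protein-coding genes within the range of mean level (18.0 to 98.0 FPKM) and length (871 to 7265 bases) of the 26S genes, 68.5% were higher, against 29 of the 31 26S genes. The median difference of these genes was 0.042 and their summed depth-scaled reads were 1.03 times those of the other library. The 26S genes themselves fall within this set. An interval above 1 was found for 30.9% of them, against 14 of the 31 26S genes, and a difference of at least 1.1-fold upward for 9.93%, against 4 of the 31. The 31 genes lie on 14 chromosomes.

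**Figure D1:**
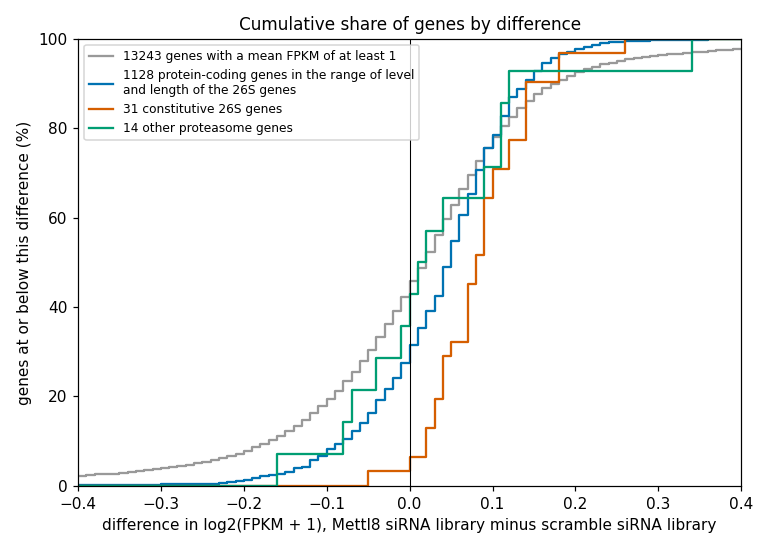
Cumulative share of genes (y axis, percent) at or below a given difference in log2(FPKM + 1) (x axis, read every 0.01), for all genes, protein-coding genes in the range of the 26S genes, the 31 constitutive 26S genes and the 14 other measured members. At a difference of 0.08 the 26S curve stands at 51.6%, against 70.7% of the range-matched genes, 72.6% of all genes and 64.3% of the other members.

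Since 26S genes shared a direction, their promoters were searched for short motifs. RefSeq promoter sequences (GRCm38.p6, 250 bases before to 50 after a start site) matched 41 of the 49 members, with 25 of them 26S genes. Psma8, Psmb1, Psmb2, Psmb7, Psmc3, Psmd3, Psmd7 and Psmg2 had no entry. The ETS core CCGGAAG, on either strand, was present in 10 of the 25 26S genes (40%), against 26.4% of 2239 protein-coding genes with a mean of at least 10 FPKM and 9.93% of all 27025 genes. ETS factors are activators of many widely expressed genes. TGACNNNGC, the core of the antioxidant response element that the proteasome activator NRF1 (Nfe2l1) is known to bind, was present in 4 of the 25 (16%), against 17.3% and 14%. The full TGACTCAGC form, contained in the former motif, was found in 0 of the 25, against 0.536% and 0.503%. CCAAT, the NF-Y box, was present in 10 of the 25 (40%), against 45.3% and 41.1%. The median difference was 0.077 for the 26S genes with the ETS core and 0.081 for those without. A match describes letters only.

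The ETS core matches upstream of the start site are shown for the 4 26S genes with the largest differences among those that hold one. This choice by difference shows no link between motif and difference. Of the motifs searched, the ETS core was the one whose share differed most, in percentage points, from that in abundant genes. Capitals mark the motif, read as CTTCCGG where it lies on the opposite strand. Coordinates are GRCm38.p6 and all 4 genes are on the plus strand. Psma6 is at chr12:55398673-55398719, Psmc2 at chr5:21785171-21785217, Psmc6 at chr14:45329704-45329750 and Psmd12 at chr11:107479491-107479527.
Psma6: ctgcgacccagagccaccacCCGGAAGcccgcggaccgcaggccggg
Psmc2: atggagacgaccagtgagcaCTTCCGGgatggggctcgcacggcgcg
Psmc6: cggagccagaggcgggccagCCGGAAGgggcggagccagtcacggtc
Psmd12: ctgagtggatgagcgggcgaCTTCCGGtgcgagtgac
The motif starts 132, 84, 100 and 17 bases before the start site in these promoters. Psmc2 and Psma6 have a second start site in the table, and in Psmc2 a further match lies 24 bases before it.

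The alpha ring, which forms the gate of the barrel, showed the largest median difference of the 26S groups, 0.12. Of its 7 genes, 6 were higher, each with a counting interval above 1. Among the protein-coding genes in the range of the 26S genes, 68.5% were higher and 30.9% had such an interval. Over all genes, these shares were 54.1% and 11.6%. Psma6 (alpha1) was 70.8 and 80.2 FPKM, a ratio of 1.134 (1.074 to 1.198). Psma3 (alpha7) was 22.1 and 24.3 FPKM and Psma5 (alpha5) 58.0 and 63.6 FPKM, ratios of 1.103 and 1.096. Psma4 (alpha3) was 42.2 and 45.9 FPKM, a ratio of 1.09 (1.03 to 1.15). Psma1 (alpha6) and Psma7 (alpha4) were closer to equal, at 30.5 and 32.7 and at 28.3 and 30.1 FPKM. Psma2 (alpha2), the most abundant gene of the family by deposited length, was the exception at 98.1 and 97.9 FPKM, a ratio of 0.998 (0.944 to 1.05) that exceeded 1 once FPKM sums were made equal. The summed depth-scaled reads of the alpha genes were 1.08 times those of the other library (1.06 to 1.101).

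The catalytic beta subunits, each holding 1 of the peptide-cutting sites, differed little. Psmb6 (beta1, caspase-like) was 46.5 and 49.2 FPKM, a ratio of 1.06 (1.00 to 1.12). Psmb7 (beta2, trypsin-like) was 33.6 and 34.2 FPKM, a ratio of 1.016 (0.967 to 1.07). Psmb5 (beta5, chymotrypsin-like, the main target of proteasome inhibitor drugs) was 36.3 and 36.7 FPKM, a ratio of 1.01 (0.921 to 1.11). All 3 were higher, but for Psmb5 and Psmb7 by less than counting error. Among the protein-coding genes in the range of the 26S genes, 68.5% were higher, against 54.1% of all genes. Of the structural beta genes, Psmb2 (beta4) stood out at 33.6 and 38.2 FPKM, a ratio of 1.14 (1.05 to 1.23). Psmb1 (beta6) was 96.4 and 97.5 FPKM, Psmb4 (beta7) 56.1 and 58.8, and Psmb3 (beta3) 27.8 and 29.6, with intervals that hold 1. Psmb1 turned lower when the median ratio of all genes was set to 1, whereas Psmb2, Psmb3 and Psmb4 stayed higher.

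The level of Psmb5 is uncertain because the genome holds a near-identical copy with reads of its own. Gm3375, a processed pseudogene on chromosome 7 (GRCm38, 3181093 to 3181888), was 19.9 and 21.2 FPKM, 54.7% and 57.7% of the level of Psmb5. It matches the whole 795-base coding sequence of Psmb5 with 8 mismatches, and the longest stretch without one is 194 bases. The 90-base coding stretch with the most mismatches, bases 376 to 465 counted from the A of the start codon, holds 3, printed in capitals, because reads between such positions fit both genes equally well. In GENCODE M21 transcripts these are T387A, C417T and T465C, with the base of Psmb5 first and that of the copy last.
Psmb5: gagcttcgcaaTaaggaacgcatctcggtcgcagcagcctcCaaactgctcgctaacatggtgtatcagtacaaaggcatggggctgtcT
Gm3375: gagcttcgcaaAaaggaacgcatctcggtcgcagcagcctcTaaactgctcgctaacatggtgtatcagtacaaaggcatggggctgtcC
Added together, the reads of gene and copy were 1350 and 1359, a depth-scaled ratio of 1.03. Whether reads of Psmb5 were counted at its copy was not tested. Psmb5 also shares 109 exon bases on the same strand with the microRNA gene Mir686, which stood at 122 and 114 FPKM.

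The base ATPases, the motor that unfolds substrates, were all higher, 6 of 6, with a median of 0.084. Among the protein-coding genes in the range of the 26S genes, 68.5% were higher, with a median of 0.042. Over all genes, 54.1% were higher. The counting interval lay above 1 for 3 of the 6 ATPase genes, against 30.9% of the genes in that range. Psmc2 (Rpt1), by deposited length the least abundant 26S gene with a Psm symbol, was 17.0 and 18.9 FPKM, a ratio of 1.11 (1.05 to 1.17). Psmc6 (Rpt4) was 66.5 and 73.0 FPKM, a ratio of 1.099 (1.045 to 1.156). Psmc5 (Rpt6) stood at 68.6 and 73.3 FPKM, with a ratio of 1.07 (1.01 to 1.13). The other members were closer to equal: Psmc4 (Rpt3) was 42.5 and 44.7 FPKM, Psmc3 (Rpt5) 50.2 and 51.7, and Psmc1 (Rpt2) 66.3 and 67.7. Psmd1, Psmd2 and Psmd4, the scaffold and ubiquitin-receptor genes of the base, differed by at most 0.065 and had intervals that hold 1.

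The lid held both the largest and the lowest difference of the 26S genes with a Psm symbol. Psmd7 (Rpn8), the partner of the lid deubiquitinase, was 48.1 and 57.7 FPKM, from 3092 and 3630 reads. Its ratio of 1.201 (1.145 to 1.261) was the highest of the 26S genes, and its interval does not overlap that of Psmd14 (Rpn11), the deubiquitinase it pairs with. Psmd14 was 22.3 and 22.7 FPKM, a ratio of 1.02 (0.954 to 1.09). Psmd12 (Rpn5) was 28.1 and 30.5 FPKM, a ratio of 1.09 (1.02 to 1.15), and Psmd11 (Rpn6), a scaffold of the lid, 25.7 and 26.9 FPKM, a ratio of 1.05 (1.00 to 1.09). The levels of Psmd6, Psmd8 and Psmd13 were 28.0 and 29.7, 26.7 and 28.0, and 23.8 and 25.1 FPKM. Psmd3 (Rpn3) was the only lid gene at a lower level in the library labelled Mettl8 siRNA, 24.6 and 23.5 FPKM, with a ratio of 0.958 (0.913 to 1.01) that exceeded 1 once FPKM sums were made equal.

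**Figure D2:**
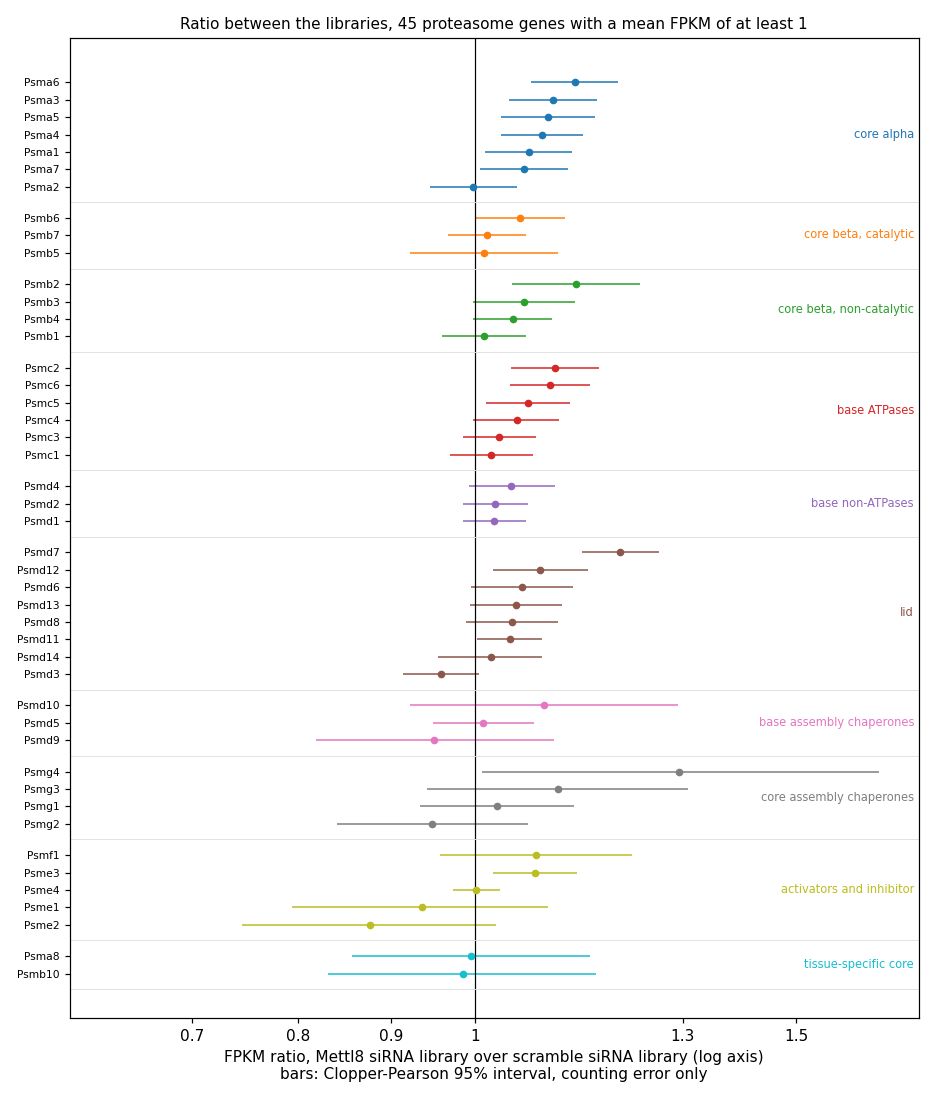
Ratio of FPKM in the library labelled Mettl8 siRNA over the library labelled scramble siRNA (x axis, log scale) for the 45 members with a mean FPKM of at least 1, by group; bars are Clopper-Pearson 95% intervals for counting error. Most 26S genes lie to the right of 1 as deposited, led by Psmd7 at 1.201, and the widest bars belong to low genes such as Psmg4.

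Although the subunits of the core and the cap are present in the complex in fixed numbers, transcript levels were not equal. Across the 31 26S genes they spanned 5.76-fold, from Psmc2 at 17.0 to Psma2 at 98.1 FPKM, with scramble siRNA on the label, and 5.19-fold in the other library. Core genes had a median of 39.2 and 42.0 FPKM and cap genes 28.1 and 30.5. The order began with Psma2, Psmb1, Psma6, Psmc5, Psmc6, Psmc1, Psma5 and Psmb4 in both libraries. Neighbours in the order were often not separable: 24 of 30 neighbouring pairs in the first library and 21 of 30 in the second had overlapping Poisson intervals.

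Part of this spread goes with the gene length by which reads were divided. The deposited lengths equal, within 1 base, the union of all exons in GENCODE M21 for 39 of the 49 members, and that union exceeds the principal protein-coding transcript 1.06 to 3.36 times among the 25 26S genes concerned. Over the principal transcript, the levels of these 25 genes spanned 3.61-fold, against 4.15-fold by the deposited length, in the library labelled scramble siRNA, and 3.47-fold against 4.25-fold in the other. Psmb6 was then the most abundant at 109 depth-scaled reads per kilobase and Psma3 the least at 30.2, whereas Psma6 and Psmc2 held these places before. Levels between genes are thus approximate, and the ratio of 1 gene between libraries does not depend on its length.

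**Figure D3:**
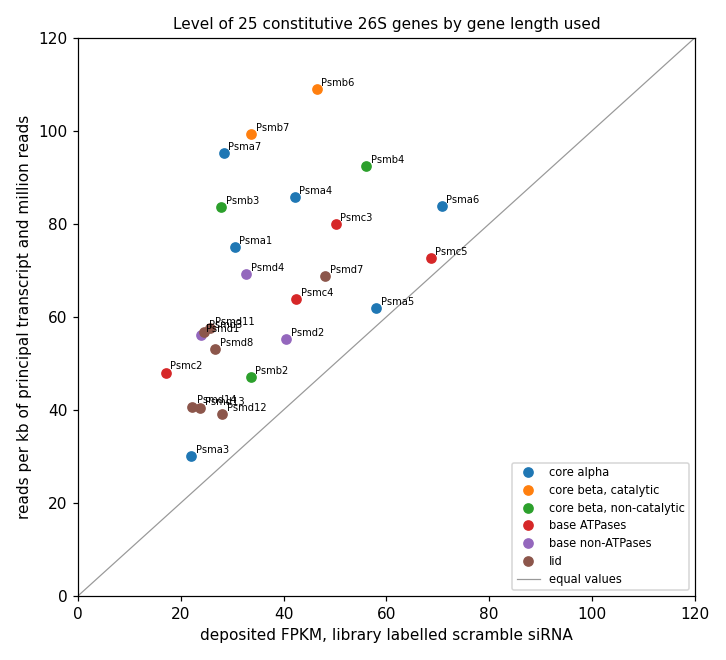
Deposited FPKM (x axis) against reads per kilobase of principal transcript scaled to depth (y axis) for 25 constitutive 26S genes in the library labelled scramble siRNA; the line marks equal values. All 25 points lie above the line, with Psmb6 highest at 109 and Psma3 lowest at 30.2.

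Immunoproteasome subunits, which interferon induces in place of the standard catalytic subunits, were scarce but for 1. Psmb8 (beta5i) rests on 1 and 4 reads, 0.01 and 0.05 FPKM, with upper limits of 0.0716 and 0.135 FPKM. Psmb9 (beta1i) was 0.20 and 0.19 FPKM, so that Psmb6 exceeded it 232-fold (150.4 to 373) and 259-fold (168.5 to 439). Psmb10 (beta2i) stood apart at 5.89 and 5.80 FPKM, 17.5% and 17.0% of the level of Psmb7. By principal transcript length Psmb7 exceeded Psmb10 12.9-fold and 13.4-fold, against 5.71-fold and 5.89-fold as deposited. The thymus-specific Psmb11 (beta5t) had 1 read in each library. Of the antigen presentation genes that accompany these subunits, 6 of 10 passed 1 FPKM, with 4 higher and 2 lower. H2-D1 was 4.03 and 3.69 FPKM, H2-K1 3.68 and 3.91, and B2m, the light chain of MHC class I, 9.15 and 9.53.

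Psma8, an alpha4 subunit known from the spermatoproteasome of the testis, was present at 7.45 and 7.41 FPKM, from 359 and 349 reads. By deposited length these levels are 26.3% and 24.6% of those of its somatic counterpart Psma7, which held 2478 and 2576 reads. The deposited length of Psma7 is 3072 bases, against 914 for its principal transcript. By the latter, Psma7 stood at 95.3 and 101.3 depth-scaled reads per kilobase, against 28.3 and 30.1 FPKM. No such value was available for Psma8, so these shares depend on the gene length used. The principal transcripts of the 2 genes align with 74.9% identity over 756 bases, and no transcript of another gene matched Psma8 with 95% identity over 200 bases. Psma8 and Psmb10 did not differ beyond counting error, with ratios of 0.995 (0.856 to 1.16) and 0.985 (0.831 to 1.17), and both turned higher when FPKM sums were made equal.

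**Figure D4:**
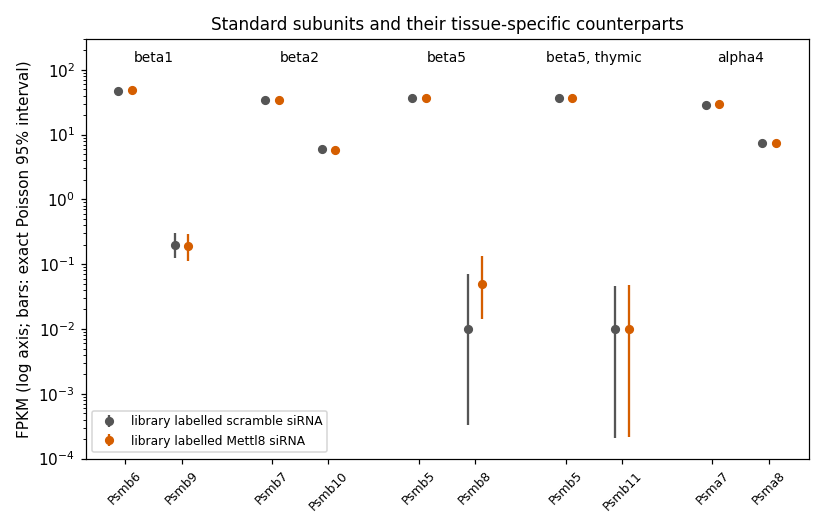
FPKM (y axis, log scale) of each standard subunit beside its tissue-specific counterpart in both libraries, with exact Poisson 95% intervals. Psmb10 and Psma8 lie below their standard counterparts but above 5 FPKM, whereas Psmb9, Psmb8 and Psmb11 lie at or below 0.20 FPKM.

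Among the alternative activators, levels differed by class. The nuclear PA28 gamma gene Psme3 was abundant at 32.8 and 35.3 FPKM, a ratio of 1.08 (1.02 to 1.14). Psme4, which encodes PA200, was 37.1 and 37.2 FPKM from 8858 and 8674 reads, a ratio of 1.00 (0.973 to 1.03). Psme1 and Psme2, the interferon-induced PA28 alpha and beta genes, were far lower. Their products form 1 ring together, and the genes lie close to each other on chromosome 14. Psme1 was 5.07 and 4.74 FPKM, a ratio of 0.935 (0.794 to 1.097). Psme2 stood at 6.75 and 5.91 FPKM, and its ratio of 0.876 (0.746 to 1.03) was the lowest of the measured members. Both intervals hold 1. Psme2b, a copy of Psme2 with 99.4% identity over 794 bases, was 0.42 and 0.30 FPKM from 10 and 7 reads. The inhibitor gene Psmf1 (PI31) was 2.87 and 3.10 FPKM, a ratio of 1.08 (0.956 to 1.22).

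Chaperones that build the proteasome were less abundant than most of its subunits. Psmg1 and Psmg2, which form the first scaffold for the alpha ring, were 21.6 and 22.2 and 18.9 and 17.9 FPKM. Psmg3 and Psmg4, the second pair of the alpha ring chaperones, were lower, at 3.45 and 3.83 and at 7.42 and 9.60 FPKM. Psmg4 had the largest ratio of all measured members, 1.29 (1.01 to 1.66), but it rests on 117 and 148 reads. Of the base chaperones, Psmd5 was 9.56 and 9.66 FPKM, Psmd10 (gankyrin) 6.51 and 7.10, and Psmd9 (p27) 1.78 and 1.69, with intervals that hold 1. The sign of Psmd5, Psmd9 and Psmg2 changed under at least 1 of the other scalings.

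**Figure D5:**
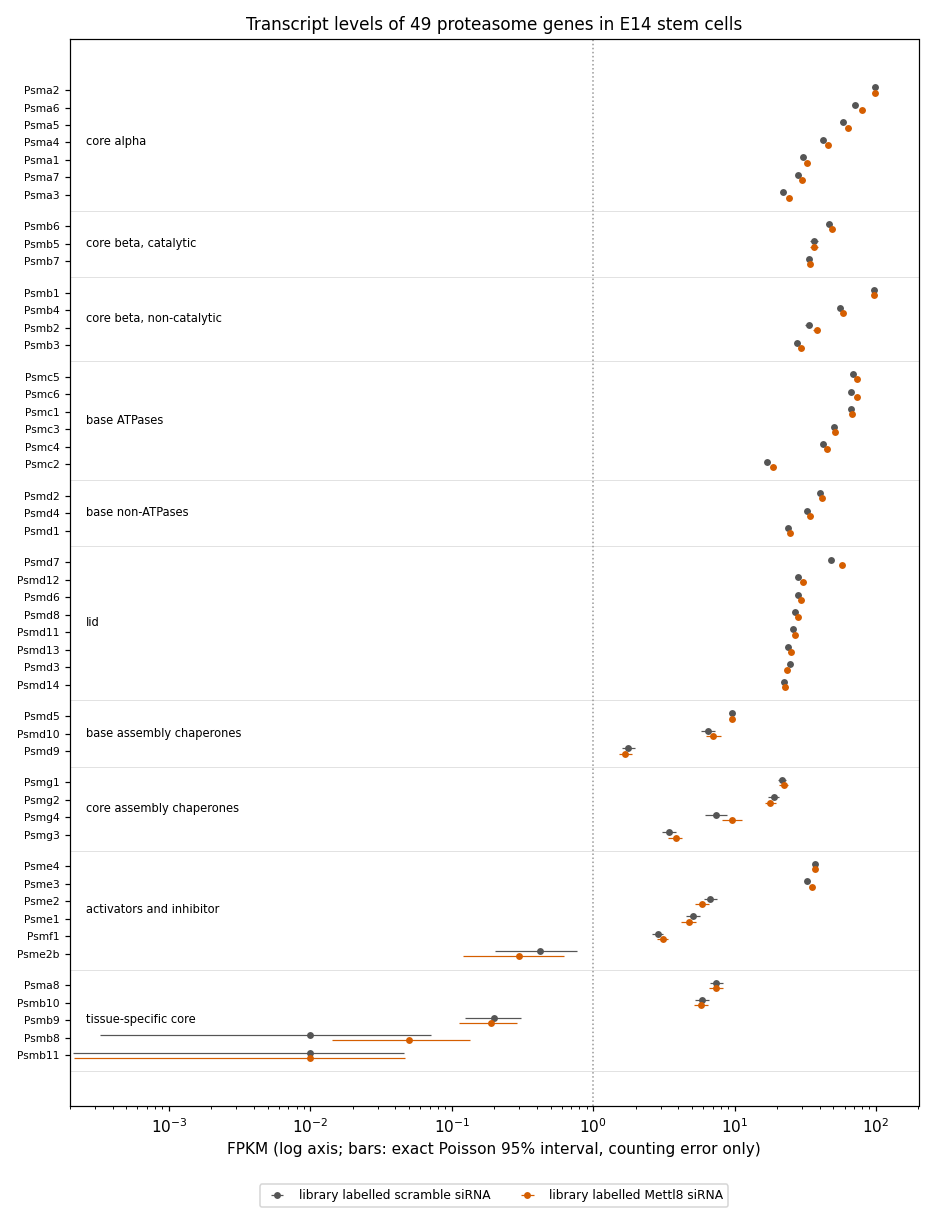
FPKM (x axis, log scale) of all 49 members by group in both libraries, with exact Poisson 95% intervals; the dotted line marks 1 FPKM. The 26S genes lie between 17.0 and 98.1 FPKM, chaperones between 1.69 and 22.2, and 4 genes lie below 1 FPKM.

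Of 13 partners of the proteasome without a Psm symbol, 11 were higher as deposited, against 54.1% of all genes. With equal FPKM sums, 75.5% of all genes were higher, and the partners were not counted under that scaling. The median difference of the 13 partners was 0.067 as deposited. The counting interval lay above 1 for 2 of the 13, against 11.6% of all genes. The cap subunit genes Adrm1 (Rpn13, a ubiquitin receptor) and Sem1 (Rpn15) were 10.48 and 10.01 and 8.30 and 8.56 FPKM. Pomp, the maturation factor of the core, was 10.2 and 10.7 FPKM. The largest differences were those of the ubiquitin ligase Ube3c (7.91 and 8.70 FPKM), the deubiquitinase Uchl5 (11.2 and 12.2), Zfand2a (3.72 and 4.06) and Txnl1 (28.0 and 30.1). Adrm1 was lower as deposited and higher once FPKM sums were made equal. Paaf1 was not analysed here.

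In the list of genes for the transcription and processing of NRF1, which also holds related regulators such as Keap1, Vcp and Ogt, 7 of 13 were higher, with a median of 0.012. Both values are near those of all genes, 54.1% and 0.013. Nfe2l1, which encodes NRF1, the activator of proteasome genes when proteasome activity falls, was 16.4 and 16.2 FPKM, a ratio of 0.989 (0.935 to 1.05) that exceeded 1 with equal FPKM sums. Nfe2l2, which encodes NRF2, stood at 7.91 and 9.01 FPKM, with a ratio of 1.14 (1.04 to 1.25). The NF-Y subunit gene Nfya was 4.13 and 4.77 FPKM, whereas the small MAF genes Mafk and Maff were 1.13 and 0.92 and 1.87 and 1.59 FPKM. Transcript levels hold no measure of NRF1 processing or activity.

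Ubiquitin genes, activating enzymes, shuttle factors and p97 cofactors had 9 of 14 members higher and a median of 0.036. This share, 64.3%, lies between the 54.1% of all genes and the 68.5% of protein-coding genes in the range of the 26S genes. Ubb, a polyubiquitin gene, was 83.6 and 92.97 FPKM, a ratio of 1.11. Rad23b, a shuttle for ubiquitinated proteins, was 38.4 and 42.0 FPKM. Ubqln2, another shuttle, had the largest difference of the list, -0.39, at 6.15 and 4.44 FPKM.

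Shared sequence limits several single values. Near-identical transcripts of other genes (at least 95% identity over 200 bases) exist for 10 members, and 14 members share exon bases with another annotated gene. Besides Gm3375 and Psme2, the copies with a mean of at least 1 FPKM were Gm13835 (5.90 and 6.09 FPKM) and Gm4742 (1.18 and 1.49) for Psma3 and Gm6542 (3.28 and 4.28) for Psma4. Psmd1 shares 301 bases with Gm21972, which stood at 44.6 and 44.4 FPKM, and Psmg3 shares 280 bases with Gm26938 at 6.99 and 8.02 FPKM. Psmb9 shares 212 bases with the antigen peptide transporter gene Tap1, 0.73 and 0.39 FPKM. Without the 20 members with a copy or an overlap, 17 of 18 26S genes were higher, with a median of 0.084.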

How the data were processed

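RNA sequencing of 2 libraries was analysed, 1 per group. The authors deposited FPKM values with 2 decimals and a gene length per gene. Alignment by STAR (version 2.4.0i), counting by featureCounts (version 1.5.0-p1) and the build mm10 are named per the submitters' processing notes. Neither the annotation, nor strandedness, nor how reads with several matches were counted, is stated by them or by the labels, so reads of overlapping, antisense or near-identical genes cannot be told apart. Reads per gene were rebuilt from the whole-number steps of FPKM times length: among genes under 400 bases with fewer than 30 reads, all 3120 and 3560 values (100%) came out whole, allowing for FPKM rounding and 0.005 reads. The genes held 22.2 and 21.4 M reads. GENCODE M21 (GRCm38, the assembly of mm10) holds 94.3% of the symbols. Copies were searched with BLAST 2.17.0. Python 3.11.15 and scipy 1.17.1 were used. The steps were tested on simulated data.

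No test between groups was possible with 1 library each, so the limma fit foreseen for several libraries did not apply. Named genes are all members, up to 4 genes of each other list with the largest differences, and 7 fixed genes. Of these, 2 genes of the other lists are not reported here. Members and lists were chosen with earlier results of these data known. Alternatives were a pseudocount of 0.1, other scalings, filters and gene lengths.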

Additional observations from a re-analysis of the deposited data

How the results depend on the processing

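No paired analysis was possible because each group has 1 library, and no replicate could be left out. The median difference of all 45 measured members, 0.067 as reported, was 0.156 with equal FPKM sums, 0.051 with the median ratio set to 1, 0.053 with equal protein-coding reads and 0.082 without the members that have a copy or an overlap (24 of 28 higher). At 1.1-fold, 6 members were apart in place of 0 at 1.5-fold. With equal FPKM sums, every gene shifted by 0.094 at high levels and medians became 0.211 for alpha, 0.113 for catalytic beta, 0.168 for other beta, 0.176 for ATPase, 0.128 for other base, 0.158 for lid, 0.099 for base chaperone and 0.094 for activator and inhibitor genes. That of the tissue-specific core genes turned from -0.013 to 0.069, with 2 of 2 higher in place of 0 (1 of 5 without a filter). The base chaperones turned from 0.014 to -0.0013 with the median ratio set to 1 and to -1.21e-04 with equal protein-coding reads, with 1 of 3 higher in both. The activator and inhibitor genes turned from 0.0027 to -0.013 and -0.012 in these settings and to -0.039 without a filter. The 26S median exceeded the median of all genes by 0.058 to 0.076 under the 4 settings of scaling and pseudocount, against 0.061. In these settings 28 to 31 of the 31 genes were higher, against 50% to 75.5% of all genes. A scaling multiplies every gene of a library by a single factor and shifts both medians nearly alike. The margin therefore could change little, and its stability is no support for it. The range-matched genes had a higher median than all genes, 0.042 as deposited.

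Over all genes, 280 were 1.5-fold apart as reported, 508 with a pseudocount of 0.1, 703 without a filter, 48 at a mean FPKM of at least 5, 17 at 10, 10 among protein-coding genes and 1 in the range of the 26S genes. The 85 genes at 2-fold became 176, 164, 5, 1, 2 and 1 in the same order. By principal transcript length, the spread of 26S levels was 3.61 and 3.47 over 25 of the 31 genes, against 4.15 and 4.25 for the same 25 by deposited length. The spread of 5.76 and 5.19 by deposited length is over all 31 genes. Psmb7 over Psmb10 was 12.9 and 13.4 by principal transcript length. The gene length and 26S range settings, and the one without copies and overlaps, were chosen after seeing the data. Counting error limits Psmb8, Psmb9, Psmb11 and Psme2b most.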

Other observations

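The measured members that interferon is known to induce, Psmb10, Psme1 and Psme2, were all lower as deposited, 3 of 3, while 29 of the 31 26S genes were higher. This group was chosen after its values were seen. Psmb10 turned higher when FPKM sums were made equal. Their summed depth-scaled reads were 0.928 times those of the library labelled scramble siRNA (counting interval 0.845 to 1.019), an interval that holds 1. Psmb9 and Psme2b, below 1 FPKM, were 0.20 and 0.19 and 0.42 and 0.30 FPKM, and Psmb8 rests on 1 and 4 reads.

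The levels of Psmd14 and Psmd7, whose proteins form a dimer in the lid, differed 2.16-fold and 2.54-fold by deposited length, with Psmd7 higher, and 1.69-fold and 1.99-fold by principal transcript length. The pair was chosen after the values of Psmd7 were seen.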
